A study of Mus musculus with 6 samples.

Results

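Solute carrier (SLC) genes encode the membrane proteins that move nutrients, ions, metals and metabolites across the plasma membrane, the mitochondrial inner membrane and the membranes of other organelles. The SLC genes examined here were those annotated on the minus strand whose symbol has the form of an SLC gene name, with Slc7a5 and Slc7a11 left out. There were 188 such entries, with 187 symbols, of 38483 genes in all. Slc35f4 was listed under 2 overlapping identifiers. A further 177 SLC genes lie on the plus strand, and every plus-strand gene was listed at 0 in all 6 cultures, so nothing can be said here about their expression.

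The study compared RNA-seq of mouse embryonic fibroblasts (MEFs) from embryos that carry a heterozygous knockout of Nipbl (Nipbl+/-) with MEFs from their wild-type (WT) littermates. NIPBL loads cohesin, the protein ring that holds sister chromatids together, onto chromosomes, and Nipbl+/- mice are a model of Cornelia de Lange syndrome. The MEFs were grown from embryos of CD1 mice in the third week of gestation, after limbs, brain and internal organs had been removed, and RNA was taken at passage 3 from 3 WT and 3 Nipbl+/- cultures in serum-containing medium. The knockout is carried by every cell of the embryo and no other treatment was given. The study's methods describe embryos of 1 pregnant mouse and call the cultures biological replicates, without tying each culture to an embryo, so p-values measure only the spread between these cultures, which may share a litter.

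Total counts were between 20307454 and 25990783 per culture, and SLC genes took between 0.693% and 0.739% of them. Nipbl was 136.0 ± 8.26 CPM in WT against 100.8 ± 0.505 CPM in Nipbl+/- MEFs (SD over 3 cultures), where CPM is the count scaled to a common library size after TMM normalization. Of 14 fibroblast markers, Sparc, Fn1 and Fbn1 lie on the minus strand, and their summed level was 21523 to 25087 CPM in WT against 22505 to 25189 CPM in Nipbl+/- MEFs. Of 18 macrophage markers, 10 lie on the minus strand and none was at 0. Their summed level was 71.3 to 91.0 CPM in WT against 102.8 to 198.8 CPM in Nipbl+/- MEFs, and the part of these cells in the SLC values was not tested beyond the macrophage carriers given below. Endothelial markers summed to 12.9 to 16.4 CPM in WT against 11.4 to 16 CPM in Nipbl+/- MEFs, skeletal muscle markers to 237.1 to 338.9 and 293.6 to 339.5 CPM, and epithelial markers to 0.363 to 0.534 and 1.03 to 2.53 CPM. Nearly all of the skeletal muscle sum was Acta1, since Actc1 was at most 0.757 CPM and Myf5 at most 0.0928 CPM in any culture. The 1 neural marker on the minus strand, Sox10, was between 0.0907 and 0.356 CPM in all 6 cultures, and the 1 erythroid marker, Hbb-b1, was at 0. Xist was 1.13, 0.0445 and 360.5 CPM in WT replicates 1, 2 and 3, and 340.2, 301.2 and 0.286 CPM in Nipbl+/- replicates 1, 2 and 3, with Ddx3y of chromosome Y in the opposite cultures, so both genotypes held cultures of both sexes.

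Transporters that supply carbon and nitrogen and the carriers of the mitochondrion are used by nearly every dividing cell, whereas other SLC genes serve absorption and secretion in kidney, gut and liver, or the uptake of transmitters by neurons. In the MEFs, 171 of the 188 entries had at least 1 count, and 44 had a mean RPKM over 10, where RPKM also takes the length of the gene into account. The 17 entries without a count in any culture were Slc4a1, Slc7a15, Slc15a5, Slc16a8, Slc16a14, Slc17a4, Slc22a12, Slc22a20, Slc22a28, Slc25a41, Slc26a4, Slc26a5, Slc34a3, Slc36a3, Slc39a5, Slc46a2 and Slc47a2. Among these, Slc4a1 is the anion exchanger of red cells, Slc22a12 the urate transporter of the kidney and Slc34a3 a renal phosphate transporter. A count of 0 allows up to 3 counts, or 0.115 to 0.148 CPM depending on the culture, and this limit covers counting error only. Another 43 entries had counts too low to be tested, and 128 were tested. The median level of the 188 entries was 0.954 RPKM, and that of the tested ones was 4.41 RPKM, beside 7.89 RPKM for all 9061 genes tested.

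The highest level belonged to Slc25a4, the heart and muscle type ADP/ATP carrier of the mitochondrial inner membrane, at 304.6, 293.3 and 305.9 RPKM in the WT cultures and 298.6, 304.3 and 314.7 RPKM in the Nipbl+/- cultures. Slc39a7, which releases zinc from the endoplasmic reticulum, followed at 130.0 RPKM on average over the 6 cultures. Slc25a3, the mitochondrial phosphate carrier, was at 114.0 RPKM. The next was Slc38a2, a sodium-coupled neutral amino acid transporter, at 87.8 RPKM. Slc25a4 lay above every other SLC gene examined here in every culture. The levels of Slc25a1, the citrate carrier (62.2 RPKM), Slc25a17, a peroxisomal carrier (60.0 RPKM), and Slc3a2, the heavy chain that several amino acid exchangers need at the cell surface (57.8 RPKM), overlapped between cultures, so their order is not resolved. The overlapping minus-strand genes Gm20427 for Slc39a7 and Gm24119 for Slc25a3 may share reads with them.

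**Figure D1:**
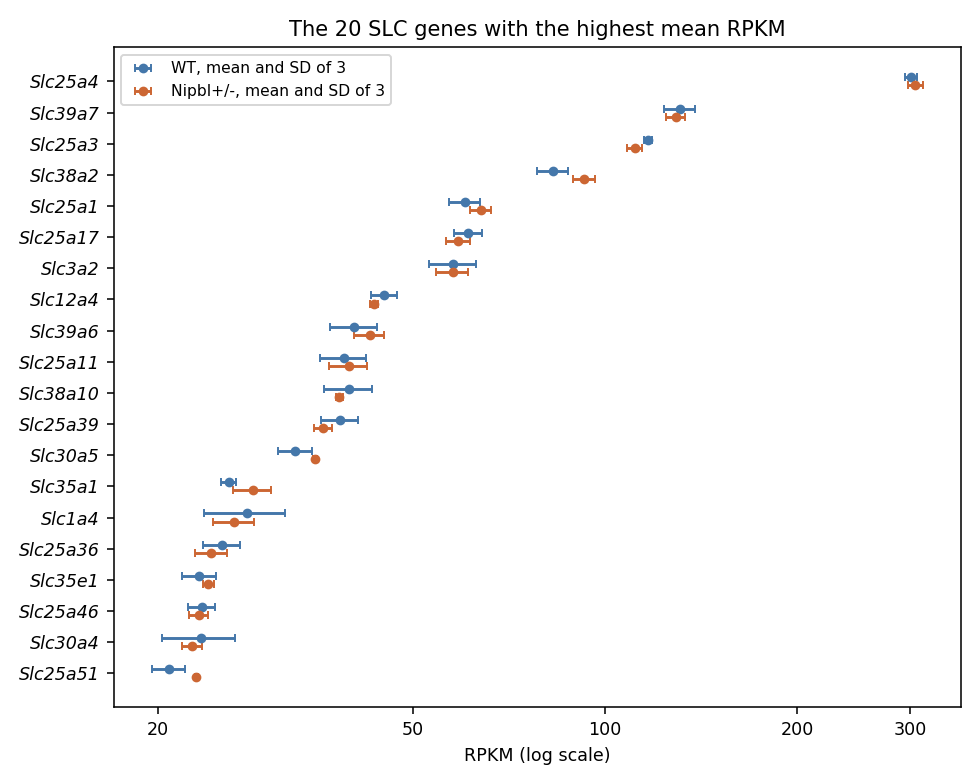
Expression of the 20 SLC genes with the highest mean level among the minus-strand genes examined here, in RPKM on a log scale. Points are the mean and bars the SD of 3 WT (blue) and 3 Nipbl+/- (orange) cultures. Slc25a4 stands alone at 303.6 RPKM on average, and the mean levels of the 2 genotypes lie close together for most genes.

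By substrate group, assigned from the family number, the mitochondrial carriers (Slc25) took 36.4% to 38.1% of SLC counts. This group also counts the peroxisomal carrier Slc25a17. The amino acid and peptide carriers took 19.3% to 21.7% and the metal carriers 19.1% to 20.1%. The sugar families took 5.07% to 5.38% in WT and 4.0% to 4.29% in Nipbl+/- cultures. Slc5a7, which is a choline transporter although its family number places it in the sugar group, made this difference. It alone took 1.57% to 1.66% of SLC counts in WT and 0.643% to 0.780% in Nipbl+/- cultures, and the sugar families without it took 3.30% to 3.73% over all 6 cultures.

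WT and Nipbl+/- MEFs were compared to ask which of these genes depend on the dose of Nipbl. Of the 128 SLC genes tested, 3 were lower in Nipbl+/- MEFs in edgeR's quasi-likelihood (QL) test, with p-values adjusted over all genes tested and a threshold of 0.05. These were Slc5a7, Slc6a17 and Slc6a7. None was higher. This is 2.34% lower, beside 0.916% of all genes tested, and none higher beside 1.04%. In either direction, 1.95% of all genes tested passed. At an unadjusted p-value under 0.05, 20 SLC genes were lower (15.6%, beside 7.95% of all genes) and 6 were higher (4.69%, beside 8.98%). In 24 SLC genes the genotypes did not overlap and Nipbl+/- was the lower (18.8%, beside 10.8% of all genes), and in 7 it was the higher (5.47%, beside 12%). The log2 fold change was below 0 for 86 of the 128 genes (67.2%, beside 51.6% of all genes). Its median was -0.06 for SLC genes and -0.0057 for all genes, a difference far smaller than the changes of the 3 genes that passed. The number of lower genes was 1 without WT replicate 1, Nipbl+/- replicate 1 or Nipbl+/- replicate 2, and 2 without any of the others, and the median was -0.09 without Nipbl+/- replicate 1.

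**Figure D2:**
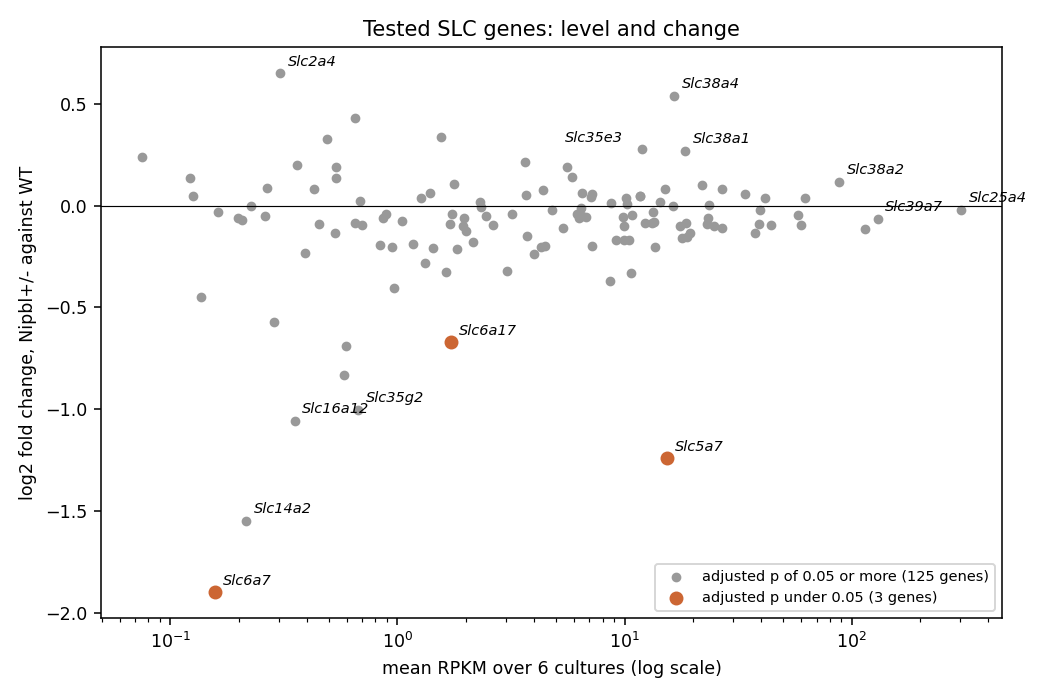
Log2 fold change of Nipbl+/- against WT for the 128 tested SLC genes, plotted against the mean RPKM over 6 cultures on a log scale. Orange points are the 3 genes with an adjusted p-value under 0.05, and grey points are the other 125. Slc5a7 is the only gene above 10 RPKM with a log2 fold change beyond 1 in size, and the largest decreases among grey points lie below 1 RPKM.

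Slc5a7 encodes the high-affinity choline transporter, known for supplying cholinergic nerve endings with choline for acetylcholine synthesis. It is listed as ENSMUSG00000023945 on the minus strand of chromosome 17, at chr17:54273594-54299034 of mm10, and overlaps no other gene. Its expression was 112.3, 117.2 and 119.0 CPM in the WT cultures and 44.6, 48.9 and 53.9 CPM in the Nipbl+/- cultures. The groups were far apart, with every WT culture above every Nipbl+/- culture by more than the whole range within either genotype. The mean was 116.2 ± 3.43 CPM in WT against 49.1 ± 4.64 CPM in Nipbl+/- MEFs (SD over 3 cultures each), and the log2 fold change was -1.24 ± 0.07 (SE), with a QL adjusted p of 0.000661, a decrease of 57.7%. It passed the threshold with each culture left out in turn, with log2 fold changes from -1.31 to -1.18 and adjusted p-values up to 0.0106. With the Xist level as a covariate, a fit added after the data were seen in which 1.96% of all genes passed, its log2 fold change was -1.22 and its QL adjusted p was 0.0021. Its level was 21.4 RPKM in WT and 9.32 RPKM in Nipbl+/- MEFs, and by the mean over both genotypes, 15.3 RPKM, it ranked 29th among the 188 SLC entries. Which cells of the cultures expressed it was not tested.

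Slc6a17, a vesicular transporter of neutral amino acids known from neurons, lies at chr3:107467543-107518018 (ENSMUSG00000027894). Its expression was 21.0, 24.2 and 22.3 CPM in the WT cultures and 14.9, 12.9 and 14.6 CPM in the Nipbl+/- cultures, with no overlap between the genotypes. The mean was 22.5 ± 1.61 CPM in WT against 14.1 ± 1.06 CPM in Nipbl+/- MEFs (SD over 3 cultures each), and its level was 1.72 RPKM. The log2 fold change was -0.67 ± 0.09 (SE), with a QL adjusted p of 0.0213, a decrease of 37.2%. With 1 culture removed at a time, it passed in 3 of 6 fits, with QL adjusted p-values from 0.0246 to 0.0842, and its adjusted p was 0.0564 with the replicate number as a block, when 0.949% of all genes passed. The call was lost without WT replicate 1, Nipbl+/- replicate 1 or Nipbl+/- replicate 2.

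Slc6a7, the proline transporter of brain synapses, had very few reads. At ENSMUSG00000052026 on chromosome 18, from 60995381 to 61014199, 15, 27 and 16 reads were counted in the WT cultures and 6, 6 and 4 in the Nipbl+/- cultures. The level was 0.875 ± 0.285 CPM in WT against 0.230 ± 0.0398 CPM in Nipbl+/- MEFs (SD over 3 cultures each), or 0.158 RPKM on average. The genotypes did not overlap, and the log2 fold change was -1.90 ± 0.38 (SE), with a QL adjusted p of 0.0494. The call rested on every culture, since the adjusted p-value was between 0.0817 and 0.152 when each was left out in turn, and it was 0.0936 with the Xist level as a covariate, 0.0858 with the replicate block and 0.0508 with upper-quartile factors. The log2 fold change stayed at -1.85, -1.90 and -1.91 in these 3 fits and was between -2.05 and -1.60 with a culture left out. DESeq2 gave no adjusted p-value for Slc6a7. The other tested Slc6 genes were Slc6a18 and Slc6a20b, and all 4 had log2 fold changes below 0 (100%, beside 51.6% of all genes).

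**Figure D3:**
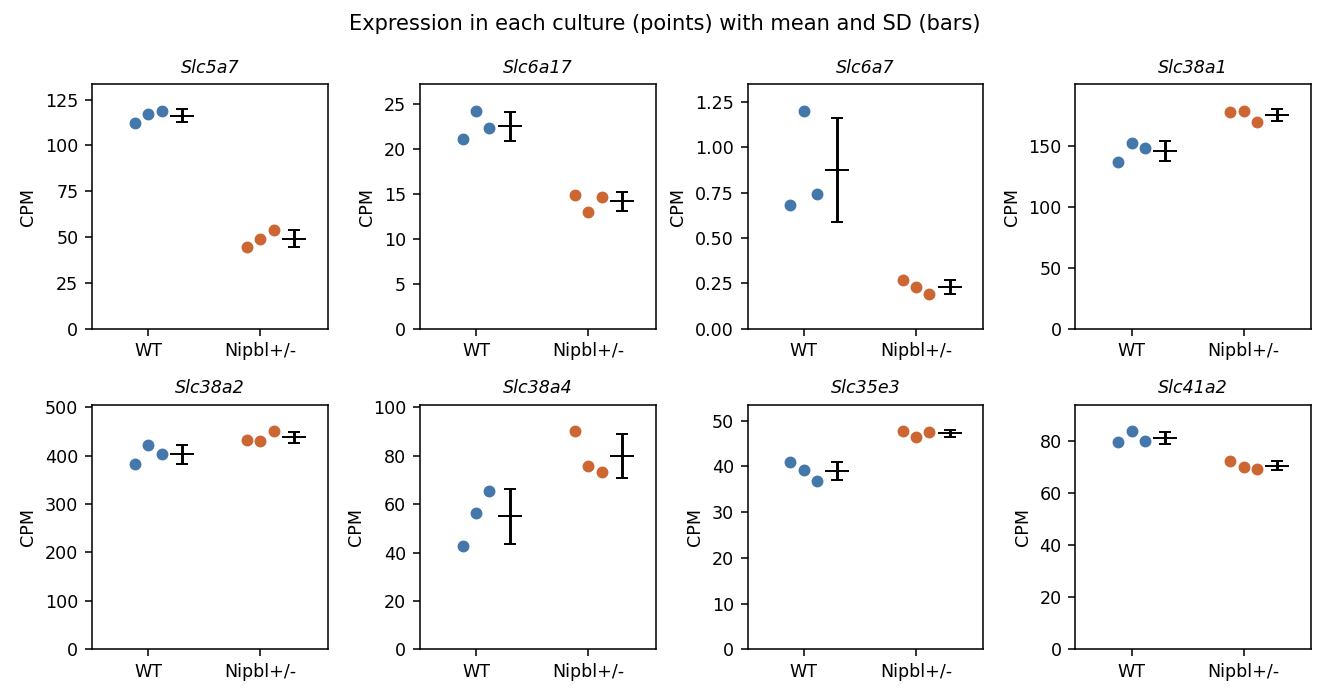
Expression in CPM of 8 SLC genes in each culture, with every axis starting at 0. Points are the 3 WT (blue) and 3 Nipbl+/- (orange) cultures, and the bars beside them are the mean and SD. In all 8 genes the genotypes do not overlap, but among them only Slc5a7, Slc6a17 and Slc6a7 passed the adjusted threshold.

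The reference sequence around the annotated start is shown for Slc5a7 and Slc6a17, which fell in Nipbl+/- MEFs, and for Slc38a2 and Slc38a4, which are described below, so that their base composition can be compared. Each window of 300 bases was taken from RefSeq on GRCm38.p6, is written 5′ to 3′ along the minus strand, and ends shortly after the annotated start. Capitals mark matches, on either strand, of the CCAAT box, the GC box sequence GGGCGG and the TATA box sequence TATAAA. No matches overlapped.
Slc5a7, chr17:54298985-54299284: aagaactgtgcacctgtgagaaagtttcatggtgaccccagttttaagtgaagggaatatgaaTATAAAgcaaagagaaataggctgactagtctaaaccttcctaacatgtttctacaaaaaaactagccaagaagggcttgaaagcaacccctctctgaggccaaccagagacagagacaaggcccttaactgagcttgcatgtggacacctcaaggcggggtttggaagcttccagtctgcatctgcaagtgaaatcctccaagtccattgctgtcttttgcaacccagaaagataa
Slc6a17, chr3:107517969-107518268: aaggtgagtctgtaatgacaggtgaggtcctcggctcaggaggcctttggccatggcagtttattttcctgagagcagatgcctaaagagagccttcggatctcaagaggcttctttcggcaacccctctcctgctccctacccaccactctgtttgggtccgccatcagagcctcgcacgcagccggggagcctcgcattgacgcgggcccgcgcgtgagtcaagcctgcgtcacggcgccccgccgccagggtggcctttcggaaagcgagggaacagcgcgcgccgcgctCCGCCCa
Slc38a2, chr15:96699679-96699978: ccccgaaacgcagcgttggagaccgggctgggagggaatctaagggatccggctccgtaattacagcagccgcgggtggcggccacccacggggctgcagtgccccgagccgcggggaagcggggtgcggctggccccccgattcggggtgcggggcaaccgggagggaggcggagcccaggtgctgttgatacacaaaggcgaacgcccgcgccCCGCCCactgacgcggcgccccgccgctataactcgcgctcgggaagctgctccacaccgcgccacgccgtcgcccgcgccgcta
Slc38a4, chr15:97055907-97056206: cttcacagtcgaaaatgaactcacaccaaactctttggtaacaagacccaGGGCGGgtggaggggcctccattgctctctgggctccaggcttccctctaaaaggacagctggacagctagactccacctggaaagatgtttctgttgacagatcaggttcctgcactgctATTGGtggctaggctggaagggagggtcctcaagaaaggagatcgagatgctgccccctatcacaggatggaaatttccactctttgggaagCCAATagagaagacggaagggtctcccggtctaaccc

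The Slc5a7 window was poor in CG dinucleotides, with 1 CG and 44.7% G and C bases, and 94.6% of all 32851 windows in the RefSeq table held at least as many CG. It held 1 match of TATAAA, which 13.6% of all windows contain. The Slc6a17 window held 26 CG and 1 match of GGGCGG, a motif present in 35.7% of windows. The Slc38a2 window was the richest of the 4 in CG, with 41. The Slc38a4 window held 5 CG, 1 match of GGGCGG and 2 of CCAAT, a motif present in 37.4% of windows. None of the 4 windows held TGATGNAA, a motif of CHOP and ATF4 composite elements, which 3.97% of all windows contain. Elements outside these 300 bases, such as those further into the gene, could not be found by this search. The median window held 7 CG over the whole table and 14 over the 181 windows of the 139 SLC symbols that matched. Of the genes that fell, the 2 shown thus had windows on either side of these medians.

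Of 22 tested amino acid and peptide carriers, 2 were lower (Slc6a17 and Slc6a7, 9.09%, beside 0.916% of all genes) and 0 higher (beside 1.04%) at the adjusted threshold. At an unadjusted p-value under 0.05, 3 were higher (13.6%, beside 8.98% of all genes) and 3 lower (13.6%, beside 7.95%), and the median log2 fold change was -0.06. The 3 with higher values were Slc38a1, Slc38a2 and Slc38a4, which take up neutral amino acids together with sodium and are neighbours on chromosome 15. Slc38a1, at chr15:96571418-96642913, had 136.4, 152.1 and 147.7 CPM in the WT cultures and 177.0, 178.6 and 169.6 CPM in the Nipbl+/- cultures. Its lowest Nipbl+/- culture was above its highest WT culture, and its log2 fold change was 0.27 ± 0.06 (SE), with a QL adjusted p of 0.0579. Slc38a4, at chr15:96994823-97055956, is imprinted and expressed from the paternal copy. It had 42.7, 56.5 and 65.5 CPM in WT and 90.1, 75.9 and 73.3 CPM in Nipbl+/- cultures, with a log2 fold change of 0.54 ± 0.14 (SE) and a QL adjusted p of 0.104. The WT cultures of Slc38a4 spread widely, and the genotypes were separated by less than the range within WT. Slc38a2, at chr15:96687394-96699698, had 382.9, 422.4 and 403.7 CPM in WT and 431.9, 430.2 and 450.1 CPM in Nipbl+/- cultures, with a log2 fold change of 0.12 (QL adjusted p = 0.291). None of the 3 passed the adjusted threshold in this test, whereas edgeR's exact test called Slc38a4 (adjusted p = 0.019) and DESeq2 called Slc38a1 (adjusted p = 0.00562) and Slc38a4 (adjusted p = 0.00408), tests that called 4.77% and 5.26% of all genes. Without the filter on low counts, when 2.41% of all genes passed, Slc38a1 and Slc38a4 passed too. Within 500 kb of Slc38a4 on the minus strand, the only gene with enough counts apart from Slc38a1 and Slc38a2 was Amigo2, with a log2 fold change of 0.20 (SE 0.32).

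Of 7 amino acid carriers known as targets of ATF4, a transcription factor of the response to amino acid shortage and eIF2α phosphorylation, 5 lie on the minus strand and all 5 were tested. None passed the threshold. Slc38a2 had the values above. Slc1a4 (ASCT1, an exchanger of small neutral amino acids) had a log2 fold change of -0.11, Slc3a2 of -0.04, and Slc7a1 and Slc7a3, transporters of cationic amino acids, of -0.08 and 0.22. The genotypes overlapped in each of these 4. The median over the 5 was -0.04. Slc7a5 and Slc7a11, left out of the SLC genes examined here, were not on this list.

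Among the sugar families, 13 genes were tested. At an unadjusted p-value under 0.05, 2 were lower, Slc5a7 among them (15.4%, beside 7.95% of all genes), and 1 was higher (7.69%, beside 8.98%). The median log2 fold change of the group was -0.06. The higher gene was Slc2a4, the insulin-responsive glucose transporter GLUT4 of muscle and fat, with 0.862, 0.801 and 0.882 CPM in WT and 1.40, 1.49 and 1.10 CPM in Nipbl+/- cultures. Its log2 fold change of 0.65 was the largest increase among tested SLC genes, but it rested on few reads (QL adjusted p = 0.231). The other lower gene, named after its values were seen, was Slc2a3, the glucose transporter GLUT3, which overlaps Gm4482. Its log2 fold change was -0.33 ± 0.10 (SE), with a QL adjusted p of 0.152. Slc50a1, a sugar transporter of the SWEET family, had the highest mean of the group over the 6 cultures, 19.5 RPKM, with a log2 fold change of -0.13, although in WT alone Slc5a7 was higher (21.4 against 20.1 RPKM). Slc37a3 was at 11.6 RPKM with a log2 fold change of 0.05.

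The 27 tested genes of the mitochondrial group (Slc25) had a median log2 fold change of -0.05, with 19 below 0 (70.4%, beside 51.6% of all genes). Of these 27, 4 were lower at an unadjusted p-value under 0.05 (14.8%, beside 7.95%) and none passed the adjusted threshold. Slc25a4 was 765.1, 733.8 and 735.5 CPM in WT and 724.5, 734.3 and 743.1 CPM in Nipbl+/- cultures, which overlap. Slc25a3 was 697.3, 693.6 and 651.5 CPM in WT and 623.7, 627.5 and 638.0 CPM in Nipbl+/- cultures, which do not overlap. The log2 fold changes were -0.02 for Slc25a4 (SE 0.04) and -0.11 for Slc25a3 (SE 0.04, QL adjusted p = 0.258). Slc25a37, which is mitoferrin 1 and brings iron into mitochondria, was at 40.7, 37.8 and 47.5 CPM in WT and 30.1, 30.5 and 36.9 CPM in Nipbl+/- cultures. Its log2 fold change was -0.37 ± 0.11 (SE), with a QL adjusted p of 0.127, and DESeq2 called it with an adjusted p of 0.0403. Slc25a1 overlapped between genotypes, with a log2 fold change of 0.04.

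Of 13 metal carriers tested, none passed the adjusted threshold, 4 were lower at an unadjusted p-value under 0.05 (30.8%, beside 7.95% of all genes) and 9 had log2 fold changes below 0 (69.2%, beside 51.6%), with a median of -0.06. Slc41a2, a magnesium transporter, had 79.5, 83.6 and 79.7 CPM in WT and 72.2, 69.7 and 69.0 CPM in Nipbl+/- cultures. The genotypes did not overlap, and the log2 fold change was -0.20 ± 0.05 (SE), with a QL adjusted p of 0.0681. The zinc transporters with the highest levels, Slc39a7, Slc39a6 and Slc30a5, overlapped between genotypes and had log2 fold changes of -0.06, 0.04 and 0.06.

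Of 16 tested nucleoside and nucleotide sugar carriers, none passed the adjusted threshold and 10 had log2 fold changes below 0 (62.5%, beside 51.6% of all genes), with a median of -0.06. Slc35e3, whose family is known for nucleotide sugar transport into the Golgi apparatus, came closest of the genes that were higher. It had 40.9, 39.1 and 36.8 CPM in WT and 47.7, 46.4 and 47.6 CPM in Nipbl+/- cultures, without overlap, and a log2 fold change of 0.28 ± 0.06 (SE), with a QL adjusted p of 0.0554. It was called by edgeR's exact test (adjusted p = 0.0319), by DESeq2 (adjusted p = 0.0340) and without the filter on low counts (adjusted p = 0.0487). Slc35g2 of the same superfamily had 1.59, 1.07 and 1.76 CPM in WT and 0.631, 0.879 and 0.668 CPM in Nipbl+/- cultures, with a log2 fold change of -1.0 ± 0.29 (SE) and a QL adjusted p of 0.127. Slc29a1, the equilibrative nucleoside transporter ENT1, had a log2 fold change of -0.16. Its genotypes were barely apart, at 75.57 CPM in the lowest WT culture and 75.54 CPM in the highest Nipbl+/- culture, and they overlapped in RPKM. Slc35a1, which carries CMP-sialic acid into the Golgi apparatus, was at 26.9 RPKM with 0.08, and Slc35e1 was at 23.6 RPKM with 0.0039.

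**Figure D4:**
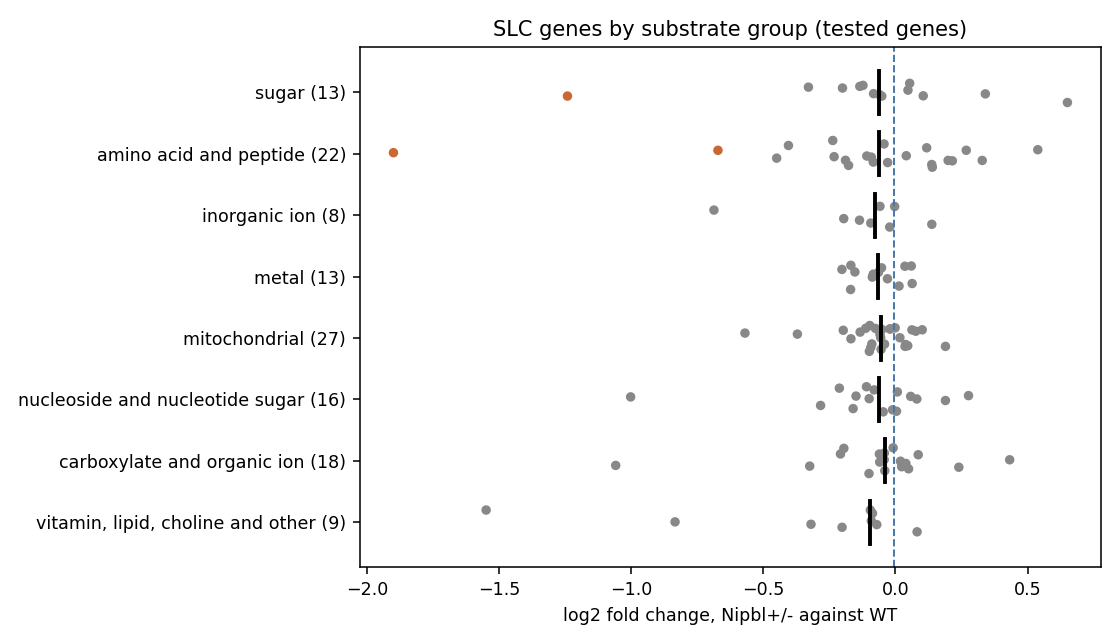
Log2 fold change of Nipbl+/- against WT for tested SLC genes by substrate group, with the number of tested genes in brackets. Each point is a gene, orange where its adjusted p-value was under 0.05. Black bars are group medians and the dashed line is the median of all tested genes, -0.0057. All 8 medians lie between -0.10 and -0.04.

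In the remaining groups no gene passed the adjusted threshold. Of 8 tested carriers of inorganic ions, 7 had log2 fold changes below 0 (87.5%, beside 51.6% of all genes), with a median of -0.08. Slc12a4, the potassium chloride cotransporter KCC1, was the most abundant at 44.3 RPKM (log2 fold change -0.09). Slc8a1, a sodium calcium exchanger, had -0.20, and Slc26a2, a sulfate transporter, had -0.02. The genotypes overlapped in all of these 3. Of 18 tested carriers of carboxylates and organic ions, 11 were below 0 (61.1%), with a median of -0.04. Slc16a12, a monocarboxylate transporter family member that carries creatine, had 2.27, 1.42 and 2.32 CPM in WT and 1.35, 0.726 and 0.812 CPM in Nipbl+/- cultures, with a log2 fold change of -1.06 ± 0.32 (SE) and a QL adjusted p of 0.141. Slc16a10, a transporter of aromatic amino acids, went the other way, at 3.36, 3.12 and 2.74 CPM in WT and 4.37, 3.52 and 4.58 CPM in Nipbl+/- cultures (log2 fold change 0.43 ± 0.17, QL adjusted p = 0.261). Slc17a5, the lysosomal sialic acid exporter, and Slc22a5, the carnitine transporter, had log2 fold changes of 0.04 and -0.04.

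Of 9 tested carriers of vitamins, lipids, urea and other substrates, 8 were below 0 (88.9%, beside 51.6% of all genes), with a median of -0.10. In 4 the genotypes did not overlap and Nipbl+/- was the lower (44.4%, beside 10.8% of all genes). Slc14a2, a urea transporter known from the kidney, had 0.817, 1.29 and 1.11 CPM in WT and 0.676, 0.191 and 0.239 CPM in Nipbl+/- cultures, with a log2 fold change of -1.55 ± 0.46 (SE) and a QL adjusted p of 0.139. The other 3 were Slc23a2, a vitamin C transporter (-0.20), Slc27a3 of the fatty acid transport protein family (-0.32) and Slc33a1, which carries acetyl-CoA into the endoplasmic reticulum (-0.09). For Slc33a1 the genotypes were barely apart, at 69.8 CPM in the lowest WT culture and 69.6 CPM in the highest Nipbl+/- culture, and they overlapped in RPKM. The 2 genes that bear an SLC name without being carriers, Slc9a3r2 and Slc7a6os, had log2 fold changes of -0.10 and 0.08.

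Carriers enriched in macrophages were set beside the macrophage markers. Of the 10 tested markers, 9 had log2 fold changes above 0, beside 4386 of all 9061 genes tested. The marker median was 0.99, although none of the markers passed the threshold. Of 5 carriers enriched in macrophages, 3 lie on the minus strand, and none passed the threshold. Slc40a1, the iron exporter ferroportin, had a log2 fold change of 0.06 (SE 0.19), and Slc29a3, a lysosomal nucleoside transporter, had -0.11 (SE 0.09). Slc37a2, a phosphate-linked glucose-6-phosphate antiporter of the endoplasmic reticulum, had 1.81, 1.38 and 7.28 CPM in WT and 5.91, 2.25 and 1.72 CPM in Nipbl+/- cultures. It was high in WT replicate 3 and Nipbl+/- replicate 1 and low in the other 4, so that its log2 fold change was -0.08 ± 0.66 (SE), and 1.04 without WT replicate 3.

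Of 4 SLC genes known to be imprinted in the mouse, 2 lie on the minus strand. Slc38a4 had the values above, and Slc22a3 had so few reads that its level was at most 0.0477 CPM in any culture. Among tested SLC genes of the X chromosome, Slc9a7, a sodium proton exchanger, had 2.59, 2.40 and 3.71 CPM in WT and 2.07, 1.87 and 1.43 CPM in Nipbl+/- cultures, with a log2 fold change of -0.69 ± 0.24 (SE) and a QL adjusted p of 0.202. Slc10a3, which overlaps Ubl4, and Slc25a53 each had a log2 fold change of -0.10. Slc7a3, given above, is also X-linked, and its log2 fold change was 0.22.

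Other membrane transport genes of the minus strand were tallied in the same fit. Of 23 tested ABC transporters, which use ATP directly, 15 had log2 fold changes above 0 and 8 below 0 (34.8%, beside 51.6% of all genes). The median was 0.03 and none passed the threshold. Of 15 tested ion pump subunits, 1 was lower at the adjusted threshold (6.67%, beside 0.916% of all genes), and the median was -0.06. This was the plasma membrane calcium pump gene Atp2b4 (log2 fold change -0.44 ± 0.06, QL adjusted p = 0.0232). The call was lost when any culture but WT replicate 2 was left out. None of 5 tested Slco genes (median -0.17) and 9 tested Mfsd genes (median -0.08) passed. The chaperones Bsg and Emb are not on the minus strand. SLC genes were not tested against these lists.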

How the data were processed

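RNA was depleted of rRNA and made into libraries with the TruSeq RNA kit. The authors aligned the reads with TopHat2 2.0.10 to mm10 with the Ensembl 72 annotation, as given in their processing notes and methods, and deposited raw read counts per gene for each culture. The authors also deposited RPKM values, the counts scaled by gene length and library size, which were used here only as levels. The counting tool is not given in the sources used here.

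Counts of all genes were filtered with filterByExpr (minimum count 10), scaled by TMM and compared with edgeR (version 4.0.16, R 4.3.3) by its quasi-likelihood (QL) F test over 3 WT and 3 Nipbl+/- cultures without covariates. P-values were adjusted by Benjamini and Hochberg over all 9061 genes tested, with a threshold of 0.05. Standard errors (SE) were derived from the log2 fold change and its F statistic. The fit was tested on simulated data. Counts of replicates differed by more than sampling noise. Total counts were 20307454 to 25990783 per culture, and precision is limited by the number of cultures and, for genes with few reads, by depth.

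The SLC genes and gene lists were chosen with earlier results of these data known. Genes named are those past the threshold, the 5 others in each direction with the smallest p-value among genes whose genotypes do not overlap, the 3 highest in RPKM of each group, and members of the sublists. Slc2a3, Slc6a18, Slc6a20b and the choline genes fall outside this rule. 1 gene that the rule names is not reported here. Alternatives were DESeq2 1.42.0, edgeR's exact test, other scaling factors, no filter, a replicate block, each culture left out, and the Xist level (over 10 CPM or not) as a covariate, added after the data were seen. Promoter windows came from RefSeq on GRCm38.p6, and the other coordinates from the files.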

Additional observations from a re-analysis of the deposited data

How the results depend on the processing

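The number of SLC genes past the threshold depended on the test. Higher in Nipbl+/- MEFs were 3 with no filter on low counts (Slc35e3, Slc38a1 and Slc38a4), 2 with edgeR's exact test, 3 with DESeq2, and 0 to 1 with a culture left out (Slc38a1 without WT replicate 2). Lower were 6 with the exact test and 1 to 2 with a culture left out. The exact test added Slc14a2, Slc16a12 and Slc35g2, and DESeq2 gave no adjusted p-value for 9 SLC genes. Of all genes tested, 4.77% passed in the exact test, 5.26% in DESeq2 and 2.41% without the filter. The median log2 fold change of SLC genes was between -0.0938 (without Nipbl+/- replicate 1) and -0.0426 (without WT replicate 3) with a culture left out. The cause of these shifts was not tested. The 1 ion pump subunit was lost (0) without any culture but WT replicate 2, and DESeq2 called 1 ABC transporter. Deviations of same-numbered cultures correlated at -0.06, -0.04 and -0.14, and those of differently numbered cultures at -0.07 to 0.12. Every same-numbered pair joined a culture with high Xist to a culture with low Xist. Among differently numbered pairs, those alike in Xist correlated at 0.05 to 0.12 and those unlike in Xist at -0.07 and -0.02. These correlations therefore cannot separate the replicate number from sex, and the labels do not say whether the numbers pair cultures. With the replicate block 1 SLC gene was lower, Slc5a7 (adjusted p = 0.00433), and 0.949% of all genes passed. With the Xist level as a covariate 1.96% of all genes passed, and Slc5a7 and Slc6a17 were lower.

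Log2 fold changes near 0 changed sign for 8 of 44 named genes when a culture was left out. Their ranges over these fits were -0.115 to 0.0317 for Slc22a5, -0.0835 to 0.0152 for Slc26a2, -0.0280 to 0.0304 for Slc35e1, -0.802 to 1.04 for Slc37a2, -0.0348 to 0.102 for Slc37a3, -0.0092 to 0.113 for Slc39a6, -0.0913 to 0.0085 for Slc3a2 and -0.0866 to 0.173 for Slc40a1. Slc37a2 was 0.0941 with the replicate block, Slc35e1 -0.0070 with upper-quartile factors and -0.0086 with the Xist level, and Slc40a1 -0.0073 with the Xist level.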

Other observations

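Genes of choline use were looked up after the decrease of Slc5a7 had been seen. Of those on the minus strand, 8 had enough counts for the test and none passed the threshold of edgeR's QL test. Aldh7a1, an enzyme of choline oxidation to betaine, was at 115.7 ± 7.15 CPM in WT against 130.2 ± 5.28 CPM in Nipbl+/- MEFs (SD over 3 cultures each), with a log2 fold change of 0.17 (QL adjusted p = 0.215). Chpt1, which makes phosphatidylcholine, had -0.15, Pemt -0.11 and Chkb, a choline kinase, -0.0029. The acetylcholine-synthesizing gene Chat had 49 reads over all 6 cultures and a log2 fold change of -0.13 (SE 0.62). Slc44a3, a choline transporter-like gene, had -0.07. Slc44a1, Slc44a2, Slc44a4, Slc44a5, Chka, Pcyt1a, Pcyt1b, Chdh and Ache lie on the plus strand, so nothing can be said about their expression.

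On the minus strand within 500 kb of Slc5a7 the only other tested gene was Mrps36-ps1, with a log2 fold change of 0.01. Within 500 kb of Slc6a17 the growth factor gene Csf1, which supports macrophages, was also lower, at 450.9, 481.8 and 497.1 CPM in WT and 327.3, 318.9 and 363.0 CPM in Nipbl+/- cultures, 223030 bases away (log2 fold change -0.50 ± 0.06, QL adjusted p = 0.0188). Ahcyl1, which lies between them, had a log2 fold change of -0.05.

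The spread between cultures was smaller in Nipbl+/- MEFs for 79 of the 128 tested SLC genes (61.7%, beside 54.5% of all genes tested). The median coefficient of variation was 9.57% in WT and 6.58% in Nipbl+/- MEFs for SLC genes, and 8.0% and 7.19% for all genes. The chi-square per degree of freedom of all genes with enough counts was 19.5 and 32.3 for pairs with WT replicate 3. It was 12.9 between WT replicates 1 and 2, and 9.51 to 12.8 between Nipbl+/- replicates. Whether WT replicate 3 alone made the difference in spread was not tested.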
